A study of Homo sapiens with 18 samples.

Results

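HOX genes and other homeobox genes were described by the half-life and synthesis rate of their mRNAs in cells with and without an inhibitor of m6A deposition. A gene was taken as a member when its symbol in the deposited table named a gene of the HOXA, HOXB, HOXC or HOXD cluster or of the families MEIS, PBX, PKNOX, TGIF, IRX, PAX, LHX, CDX, DLX, MSX, EMX, OTX, ZHX, ZEB, CUX, SATB, POU or sine oculis (SIX2 and its relatives). In all, 60 of the table's 8996 genes met this rule, 27 of them HOX genes and 33 other homeobox genes. The gene name table holds 118 symbols of this form (39 HOX and 79 other), and those outside the 60 were not analysed here.

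The cells were HEK293T, an established human embryonic kidney line, with a wild-type genotype in every group. They were given STM2457, a small molecule that inhibits the m6A methyltransferase METTL3, or its solvent DMSO. After 3 h, 4-thiouridine (s4U) was added at 100 µM for 90 or 180 min, or left out, which makes 6 groups of 3 samples and 18 samples in all. In SLAM-seq, alkylated s4U is read as T-to-C conversions, which separate new from old RNA. The libraries read the 3′ ends of polyadenylated RNA, and 1 library had a lower input than the others but could not be matched to a sample.

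In the table each gene has a fitted half-life and a fitted synthesis rate for either treatment, 1 value each. The table holds no replicate values, intervals or counts, so the depth behind a value is unknown, no error can be printed and no test was made. A gene is called longer-lived or shorter-lived where its STM2457 half-life and its DMSO half-life differed by more than 1.5-fold. Half-lives are given in hours; the table names no time unit, and hours are inferred from its largest value, 69.3, which equals ln 2 divided by a decay rate of 0.01. Synthesis rates have no stated unit and are given only as ratios of STM2457 to DMSO.

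Homeobox genes encode transcription factors with a homeodomain, a fold of helices whose last helix reads DNA. HOX genes lie in clusters, are numbered by paralog group from one end of a cluster to the other, and pattern the body axis, with low numbers acting toward the head and high numbers toward the tail and the ends of the limbs. MEIS, PBX and PKNOX proteins, of the TALE class, bind DNA together with HOX proteins. METTL3 methylates adenosines inside DRACH motifs, and m6A is known to shorten the life of many mRNAs and to be sparse near exon junctions. DRACH was spelled out as A, G or T, then A or G, then A, then C, then A, C or T, and was searched on the mRNA strand only.

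The homeoboxes of paralog groups 13, 9 and 6 are shown as examples. Each group holds genes whose fitted half-lives moved differently, or in opposite directions, although their proteins share a DNA-binding fold. In group 13 the difference rests on HOXD13, whose STM2457 half-life is the largest value in the table, 69.3 h. Only some genes of groups 9 and 6 are shown. Each homeobox is 180 nt long and was read from the GENCODE release 29 transcript (GRCh38) with the longest coding sequence. It lay in the last exon in all 8 genes shown. Capitals mark DRACH motifs, and sequences run 5′ to 3′ on the mRNA strand.

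The group 13 homeoboxes lie at chr7:27198222-27198401 (minus strand), chr17:48726820-48726999 (minus strand) and chr2:176094524-176094703 (plus strand). HOXA13 and HOXD13 shape the ends of the limbs and the urogenital tract, and HOXB13 is known from the prostate.
HOXA13: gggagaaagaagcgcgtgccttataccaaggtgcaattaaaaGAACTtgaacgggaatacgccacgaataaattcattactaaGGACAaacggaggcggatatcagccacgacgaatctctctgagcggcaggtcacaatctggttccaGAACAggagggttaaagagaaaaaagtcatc
HOXB13: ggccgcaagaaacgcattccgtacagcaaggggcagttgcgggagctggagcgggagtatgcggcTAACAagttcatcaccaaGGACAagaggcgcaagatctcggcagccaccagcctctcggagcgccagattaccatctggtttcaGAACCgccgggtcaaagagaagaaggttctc
HOXD13: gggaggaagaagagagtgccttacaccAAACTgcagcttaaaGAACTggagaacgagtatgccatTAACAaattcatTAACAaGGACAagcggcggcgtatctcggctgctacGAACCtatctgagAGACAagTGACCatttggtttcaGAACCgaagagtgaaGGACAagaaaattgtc

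The HOXD13 homeobox held 10 motifs, of which 8 had their A at least 100 nt from any exon junction, while those of HOXA13 and HOXB13 held 3 each. HOXA13 and HOXD13 were identical at 73.3% of bases, HOXA13 and HOXB13 at 69.4%, and HOXB13 and HOXD13 at 70.0%.

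The group 9 homeoboxes shown lie at chr17:48622921-48623100 (minus strand), chr12:54002465-54002644 (plus strand) and chr2:176123969-176124148 (plus strand). Genes of this group act at thoracic and lumbar levels of the body axis.
HOXB9: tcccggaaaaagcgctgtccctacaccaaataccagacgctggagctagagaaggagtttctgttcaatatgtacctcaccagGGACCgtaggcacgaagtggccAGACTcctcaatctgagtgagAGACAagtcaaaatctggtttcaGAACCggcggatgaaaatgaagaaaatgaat
HOXC9: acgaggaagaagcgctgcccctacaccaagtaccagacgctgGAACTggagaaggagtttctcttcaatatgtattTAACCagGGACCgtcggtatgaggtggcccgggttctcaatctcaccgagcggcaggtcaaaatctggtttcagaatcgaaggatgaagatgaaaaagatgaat
HOXD9: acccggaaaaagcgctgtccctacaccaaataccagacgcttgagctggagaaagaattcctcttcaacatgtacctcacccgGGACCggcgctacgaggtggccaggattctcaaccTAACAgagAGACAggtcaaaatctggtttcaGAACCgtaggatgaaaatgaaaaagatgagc

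HOXC9 held 3 motifs, and HOXB9 and HOXD9 held 4 each. Pairs of the 3 were identical at 82.2% to 84.4% of bases. A motif starting at base 84 of the homeobox was found in all 6 homeoboxes shown of groups 13 and 9 and in neither of the group 6 homeoboxes shown.

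The group 6 homeoboxes shown lie at chr17:48596473-48596652 (minus strand) and chr12:54029675-54029854 (plus strand).
HOXB6: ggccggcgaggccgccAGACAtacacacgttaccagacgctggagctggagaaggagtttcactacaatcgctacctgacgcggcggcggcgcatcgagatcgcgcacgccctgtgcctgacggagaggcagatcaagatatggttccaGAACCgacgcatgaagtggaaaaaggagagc
HOXC6: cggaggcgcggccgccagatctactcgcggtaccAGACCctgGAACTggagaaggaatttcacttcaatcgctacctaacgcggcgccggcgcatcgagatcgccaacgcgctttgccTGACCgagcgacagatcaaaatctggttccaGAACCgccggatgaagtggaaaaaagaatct

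HOXC6 held 4 motifs and HOXB6 held 2, and they were identical at 82.8% of bases. The motif starting at base 150 was present in 23 of the 27 HOX homeoboxes and missing from those of HOXA3, HOXC9, HOXC10 and HOXD11. It lies in the codons of the third helix by which the homeoboxes were located, so its position is set in part by the protein sequence. Motifs are common in coding sequence: 96.3% of 82599 coding windows of 180 nt from all genes held at least 1, with a median of 3 per window, and the median HOX homeobox held 4. A count of 10, as in HOXD13, was reached in 0.297% of those windows. Over the 27 HOX genes the number of motifs in the homeobox and the log2 half-life ratio had a Spearman rho of -0.20.

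HOX mRNAs were short-lived in DMSO. The median was 2.12 h (quartiles 1.27 and 2.75 h), against 5.61 h over all 8996 genes, and 26 of 27 HOX genes lay below that all-gene median, HOXB9 at 6.97 h being the exception. In STM2457 the HOX median was 2.19 h with an upper quartile of 6.32 h, and 20 of 27 lay below the all-gene median of 5.39 h. With the inhibitor, 12 HOX mRNAs (44.4%) were longer-lived, against 28.5% of all genes, and 2 (7.41%) were shorter-lived, against 24.9%. The remaining 13 were within 1.5-fold, and the median log2 ratio was 0.52 (quartiles 0.07 and 1.22; all genes -0.01). Members nearest the limit of 0.58 in either direction were HOXC8 at 0.56 and HOXB8 at 0.52, both within it, and HOXA4 at -0.63, past it.

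**Figure D1:**
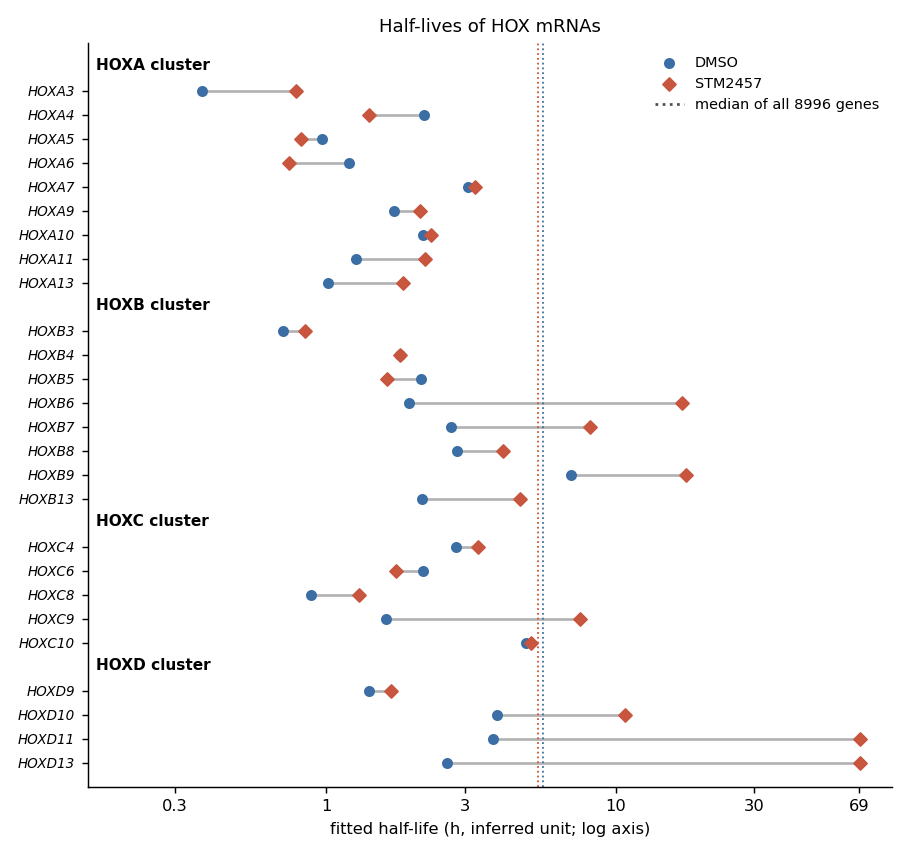
Fitted half-life of 26 of the 27 HOX mRNAs in DMSO (circles) and STM2457 (diamonds) on a log axis in hours, grouped by cluster and ordered by paralog group, with 1 value per gene and treatment; dotted lines are the medians of all 8996 genes. Most circles sit left of the dotted lines, and HOXD11 and HOXD13 reach the ceiling of 69.3 h in STM2457.

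The HOXA cluster on chromosome 7 had 10 genes in the table, and it was the cluster with the shortest median half-life in DMSO, 1.27 h. Of these, 4 were longer-lived, 2 shorter-lived, and the median log2 ratio was 0.19. HOXA3, which patterns the pharyngeal arches, had a DMSO half-life of 0.373 h, the 7th shortest of all 8996 genes, and 0.788 h in STM2457 (2.11-fold longer). HOXA11, which acts in the forearm and kidney, went from 1.26 to 2.19 h, and HOXA13 from 1.02 to 1.84 h. None of the 4 longer-lived HOXA mRNAs exceeded 2.19 h in either treatment.

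The shorter-lived HOX mRNAs were neighbours in the HOXA cluster. HOXA4 had 2.18 h in DMSO and 1.41 h with STM2457 (1.55-fold shorter), and HOXA6 had 1.19 and 0.741 h (1.61-fold shorter). HOXA5, which lies between them, had 0.966 and 0.819 h, a log2 ratio of -0.24 within the limit. All 3 lie inside the annotated span of HOXA3 (chromosome 7, 27106184 to 27152581, minus strand). Overlap here is of whole gene spans, and whether exons or 3′ ends coincide was not tested. The 3′ limits of the spans of HOXA3 and HOXA4 differ, at 27106184 and 27128507. Where exons coincide, reads of HOXA3 and of these genes may not be separable, so their values are uncertain. HOXA7, HOXA9 and HOXA10 lay near 0, with log2 ratios of 0.07, 0.29 and 0.09. HOXA10 and HOXA9 overlap each other as annotated.

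The HOXB cluster on chromosome 17 had 8 genes in the table, 4 of them longer-lived and 0 shorter-lived, with a median log2 ratio of 0.82. HOXB6 had the largest ratio of the cluster (ENSG00000108511.10; chromosome 17, 48595751 to 48604992, minus strand), from 1.93 h in DMSO to 16.9 h in STM2457 (8.73-fold). HOXB7 went from 2.69 to 8.15 h and HOXB9 from 6.97 to 17.4 h. HOXB13, which lies apart from the others at 48724763 to 48729178 and overlaps no gene of the table, went from 2.14 to 4.67 h (2.18-fold). The other 4 stayed within the limit: HOXB3 with 0.711 and 0.841 h, HOXB4 with 1.80 h in each, HOXB5 with 2.12 and 1.62 h, and HOXB8 with 2.82 and 4.06 h. HOXB4, HOXB5 and HOXB6 overlap HOXB3 as annotated, and HOXB8 and HOXB9 overlap HOXB7, on the same strand.

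The HOXC cluster on chromosome 12 had 5 genes in the table and 1 longer-lived mRNA, HOXC9, at 1.61 h in DMSO and 7.53 h with STM2457 (4.68-fold). HOXC8, which acts in the thoracic region and spinal cord, was short-lived in both treatments, at 0.882 and 1.30 h. HOXC4 had 2.80 and 3.35 h, and HOXC6 had 2.15 and 1.74 h. HOXC10, a gene of lumbar and hindlimb levels, was among the longer-lived HOX mRNAs in DMSO at 4.88 h and had 5.10 h in STM2457. HOXC6 overlaps HOXC4, HOXC8 and HOXC9 as annotated, and HOXC10 overlaps none.

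The HOXD cluster on chromosome 2 had 4 genes in the table, of which 3 were longer-lived, with the highest median log2 ratio of the clusters, 2.84. HOXD13 (ENSG00000128714.6; 176092891 to 176095938, plus strand) was at 2.62 h in DMSO and at the ceiling of 69.3 h in STM2457. HOXD11, a partner of HOXA11 in the forearm and kidney, went from 3.75 h to the same ceiling. HOXD10 had 3.89 and 10.7 h, and HOXD9 had 1.40 and 1.67 h. Values at the ceiling give only the direction of the fit and leave the size unknown. In STM2457, 4 of the 60 members were at the ceiling, beside 980 of all 8996 genes (229 in DMSO). HOXD10 and HOXD11 overlap on the same strand, while HOXD9 and HOXD13 overlap no gene of the table.

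**Figure D2:**
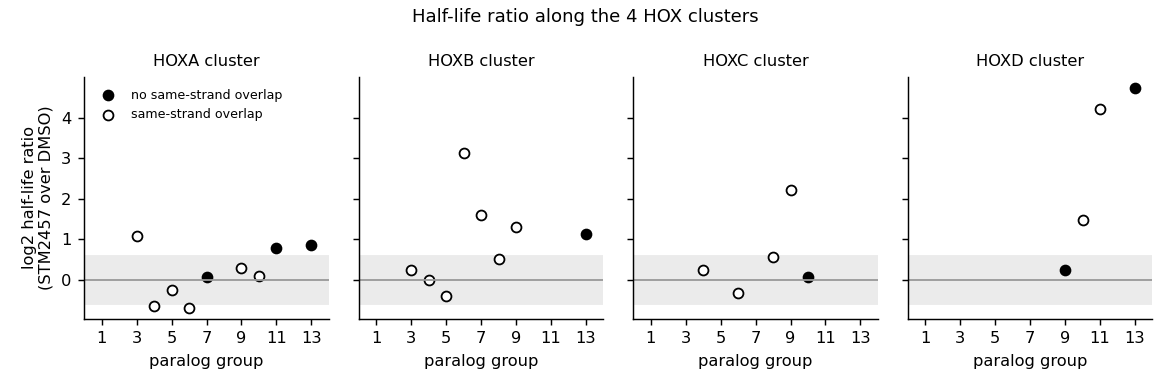
Log2 half-life ratio, STM2457 over DMSO (y axis), by paralog group (x axis) in each HOX cluster, with 1 point for each of 26 genes; open circles mark genes that overlap another gene of the table on the same strand, and the grey band marks ratios within 1.5-fold. In the HOXD panel the point of group 9 is at 0.25 and that of group 10 at 1.47, and those of groups 11 and 13 are capped at the ceiling in STM2457 and have no measured order, while the HOXA points all lie between -0.69 and 1.08.

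The ratios differed between classes of paralog groups. All 12 genes of paralog groups 9 to 13 had a longer half-life in STM2457 than in DMSO, and 8 of them were past 1.5-fold. Over all genes 47.9% had the longer half-life in STM2457 and 28.5% passed 1.5-fold, and among the 1678 genes with a DMSO half-life between the quartiles of the 60 members (1.32 to 2.81 h) these shares were 69.2% and 41.5%. Of the 15 genes of groups 1 to 8, 10 had the longer half-life in STM2457, 4 passed 1.5-fold and 2 were shorter-lived. The split at group 9 was chosen after the values were seen. It is also mixed with cluster: all 4 HOXD genes of the table fall in groups 9 to 13 and make up 3 of the 8 longer-lived genes there. Position and cluster were not separated. DMSO medians of these classes were close, 2.15 and 1.93 h, and the STM2457 median of groups 9 to 13 was 4.88 h. Overlap on the same strand was annotated for 6 of the 12 genes of groups 9 to 13 and for 13 of the 15 genes of groups 1 to 8. Among genes without such an overlap, 4 of 6 were longer-lived in groups 9 to 13 and 1 of 2 in groups 1 to 8, so the classes can hardly be compared free of overlaps.

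Within the HOXD cluster the log2 ratio was 0.25 for HOXD9, 1.47 for HOXD10, 4.21 for HOXD11 and 4.73 for HOXD13. HOXD11 and HOXD13 are both capped in STM2457, so their order reflects only their DMSO half-lives. In the HOXB cluster it was the DMSO half-life that went with the paralog number (rho 0.83 over 8 genes), from 0.711 h for HOXB3 to 6.97 h for HOXB9. HOXB13 broke that order at 2.14 h. The HOXA cluster showed little of it (rho 0.10 over 10 genes). These genes share libraries and in part annotated spans, and the coefficients are descriptions.

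Paralogs with the same number differed in their fitted folds in several groups, among them 13, 9 and 6. Those of group 8 were close, with log2 ratios of 0.52 for HOXB8 and 0.56 for HOXC8. In group 10, HOXA10 and HOXC10 were both near 0, while HOXD10 was at 1.47. Group 7 had 0.07 for HOXA7 and 1.60 for HOXB7. Group 11 had 0.79 for HOXA11 and 4.21 for HOXD11, which is at the ceiling in STM2457. In group 13 the folds were 1.81 for HOXA13, 2.18 for HOXB13 and 26.5 for HOXD13, all in the same direction. In group 9, HOXA9 was at 1.72 and 2.10 h (1.23-fold), HOXD9 1.19-fold, HOXB9 2.49-fold and HOXC9 4.68-fold. In group 6 the directions were mixed, with HOXB6 8.73-fold longer, HOXC6 1.24-fold shorter and HOXA6 1.61-fold shorter. The homeobox motif counts shown above were not ordered like these fitted folds: HOXB6 had fewer than HOXC6, and HOXC9 fewer than HOXB9 and HOXD9, while HOXD13 had the most of group 13. The sizes of the folds of HOXB6, HOXB7, HOXB9, HOXC9, HOXD10, HOXD11 and HOXD13 are not taken as known, for a reason given below. Their order is that of the fit only.

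The 33 other homeobox mRNAs were also short-lived, with a DMSO median of 1.86 h (quartiles 1.37 and 3.09 h), and 31 lay below the all-gene median. In STM2457 their median was 3.11 h (quartiles 1.68 and 5.07 h). Among them 15 (45.5%) were longer-lived and 2 (6.06%) shorter-lived; the other 16 stayed within 1.5-fold, and the median log2 ratio was 0.52. Both shorter-lived genes, MEIS3 among them, belonged to the TALE class. Near the limit, ZEB1 at 0.59 and MEIS3 at -0.60 lay just past 1.5-fold, and PBX3 at -0.54 and DLX1 at -0.53 just within it.

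**Figure D3:**
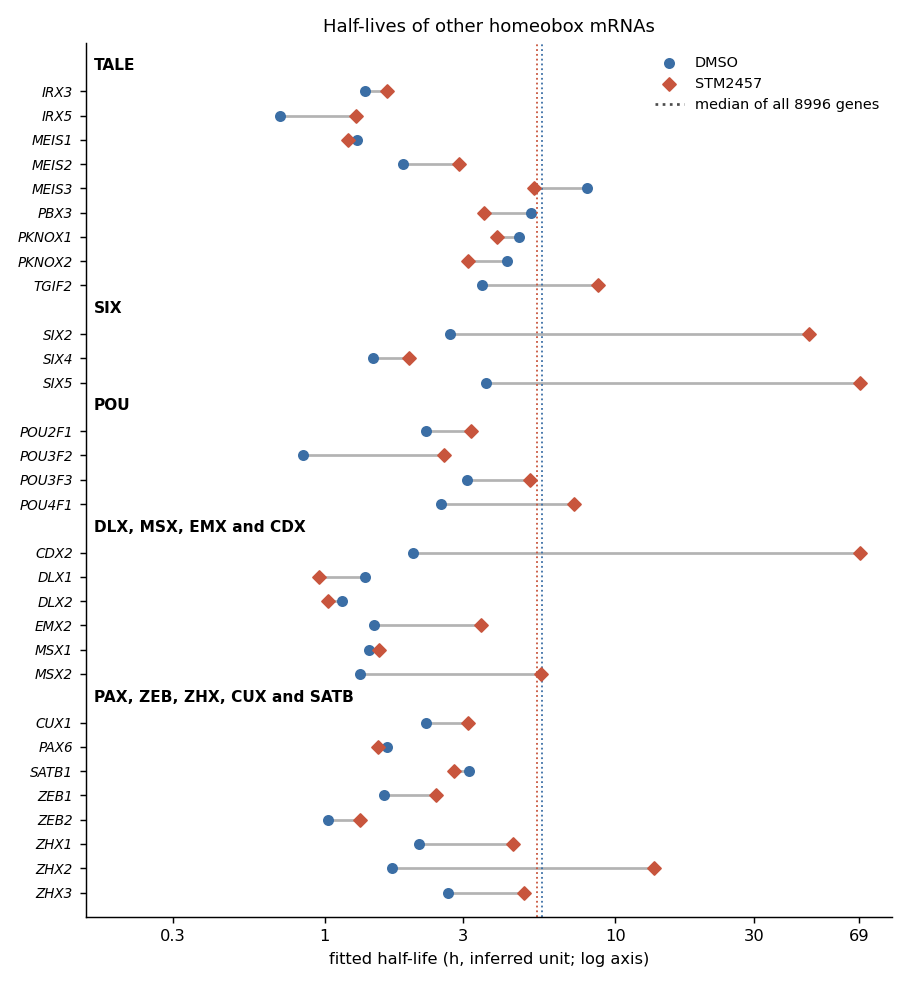
Fitted half-life of 30 of the 33 other homeobox mRNAs in DMSO (circles) and STM2457 (diamonds) on a log axis in hours, grouped by family, with 1 value per gene and treatment; dotted lines are the medians of all 8996 genes. In the TALE block the diamonds of MEIS1, MEIS3, PBX3, PKNOX1 and PKNOX2 sit left of their circles, whereas CDX2 and SIX5 reach 69.3 h in STM2457.

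The HOX cofactors of the TALE class included the longest-lived of the other homeobox mRNAs in DMSO, MEIS3, and also short-lived ones. The median of the 7 MEIS, PBX and PKNOX genes was 4.66 h in DMSO and 3.53 h with STM2457, and 6 of the 7 had the shorter half-life in STM2457. Their median log2 ratio was -0.44. Over all genes, 4520 of 8996 had the shorter half-life in STM2457. MEIS3 (ENSG00000105419.17; chromosome 19, 47403124 to 47419523), a cofactor that binds DNA beside HOX proteins, had 7.96 h in DMSO and 5.26 h with STM2457 (1.51-fold shorter). PBX3 (5.14 and 3.53 h), PKNOX2 (4.23 and 3.11 h) and PKNOX1 (4.66 and 3.93 h) lay on the same side within the limit.

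MEIS2 was the exception, with 1.86 h in DMSO and 2.90 h with STM2457 (1.56-fold longer), and MEIS1 had 1.29 and 1.20 h. MEIS1 and MEIS2 are both partners of HOX proteins and were the shortest-lived of the 7 in DMSO. Without these 7 genes, the other homeobox group held 14 longer-lived and 0 shorter-lived genes of 26, with a median log2 ratio of 0.65. The separation of the 7 from their family was made with their values known.

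The remaining TALE genes had ratios above 0, of which IRX5 and TGIF2 passed 1.5-fold and IRX3 did not. IRX5, which acts in the heart, eye and limb, was at 0.700 h in DMSO and 1.28 h with STM2457 (1.83-fold longer), and its relative IRX3 at 1.37 and 1.64 h. TGIF2, a corepressor in TGF-β signalling, went from 3.47 to 8.70 h (2.51-fold), but it overlaps the readthrough gene TGIF2-RAB5IF on the same strand and is uncertain.

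The sine oculis family, which controls progenitors of kidney, muscle and sense organs, had 4 genes in the table, 2 of them longer-lived and 0 shorter-lived. SIX2 (ENSG00000170577.8; chromosome 2, 45005161 to 45009430), which maintains nephron progenitors, had 2.71 h in DMSO and 46.4 h with STM2457 (17.1-fold). SIX5 had 3.58 h and the ceiling of 69.3 h. SIX4 stayed within the limit at 1.47 and 1.95 h. None of the 4 overlaps another gene of the table on the same strand.

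The POU genes are named for a second DNA-binding domain beside the homeodomain. The neural factor POU3F2 (BRN2) went from 0.838 to 2.57 h (3.06-fold), and POU4F1 (BRN3A) from 2.50 to 7.20 h (2.87-fold). POU3F3 (BRN1) had 3.09 and 5.07 h (1.64-fold). POU2F1 (OCT1), which is expressed in most cell types, had 2.24 and 3.18 h, a log2 ratio of 0.51. Thus 3 of 4 were longer-lived, with 0 shorter-lived.

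CDX2 (ENSG00000165556.9; chromosome 13, 27962137 to 27971139), a regulator of posterior HOX genes and of the intestine, went from 2.00 h in DMSO to the ceiling of 69.3 h in STM2457. MSX2, which acts in skull and limb, had 1.32 and 5.57 h (4.22-fold), against 1.41 and 1.54 h for its paralog MSX1. EMX2, which patterns cortex and urogenital tract, had 1.47 and 3.44 h (2.34-fold). The forebrain and limb genes DLX1 and DLX2, which are neighbours on chromosome 2, had the shorter half-life in STM2457: 1.37 and 0.951 h for DLX1 and 1.15 and 1.03 h for DLX2, both within the limit.

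Among factors that join the homeodomain to other domains, the ZHX repressors were all longer-lived. ZHX2 went from 1.71 to 13.6 h (7.95-fold), ZHX1 from 2.11 to 4.46 h (2.11-fold) and ZHX3 from 2.66 to 4.84 h (1.82-fold). ZEB1 and ZEB2, repressors that drive epithelial-mesenchymal transition, had 1.60 and 2.42 h (1.51-fold) and 1.03 and 1.33 h. CUX1 was at 2.23 and 3.10 h. PAX6, the eye regulator, had 1.64 and 1.52 h, and the chromatin organiser SATB1 had 3.14 and 2.77 h. PAX6 overlaps ELP4 on the opposite strand, and SATB1 overlaps TBC1D5 on the same strand.

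Set side by side, the HOX genes and the other homeobox genes had nearly equal half-life responses, with medians of 0.52 each and longer-lived shares of 44.4% and 45.5%. The median DMSO half-life of HOX genes was above that of the others by 0.19 on the log2 scale, and the median STM2457 half-life was below it by 0.51 (log2 difference -0.51). Taken as means, both differences were -0.13, so the sign of the DMSO difference depended on the summary. DMSO and STM2457 half-lives were ordered alike within both groups (rho 0.74 over 27 HOX genes and 0.67 over 33 others; 0.65 over all genes with a coding transcript). Without HOX genes that overlap another gene on the same strand, 5 of 8 HOX genes were longer-lived and 0 shorter-lived.

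The counts were also set beside genes whose mRNAs were about as short-lived in DMSO. Of the 1678 genes whose DMSO half-life lay between the members' quartiles (1.32 to 2.81 h), 41.5% were longer-lived and 5.18% shorter-lived, with a median log2 ratio of 0.37. The shares among HOX genes (44.4% and 7.41%) and the others (45.5% and 6.06%) were close to these. The counts of longer-lived members are therefore near the background of similarly short-lived genes.

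The fitted synthesis rates differed between the groups when all members were kept. The log2 synthesis ratio of STM2457 to DMSO was above 0 in 17 of 27 HOX genes (63.0%) and in 7 of 33 others (21.2%), against 45.3% of 8993 genes with a rate above 0 in both treatments. The medians were 0.23 for HOX genes, -0.41 for the others and -0.06 for all genes. Among the 1678 genes of similar DMSO half-life the share above 0 was 22.8% and the median -0.27. All 9 HOX genes of paralog groups 5 to 8 had ratios above 0, with a median of 0.25, and 8 of the 9 overlap another gene on the same strand. In groups 1 to 4 the ratio was above 0 in 2 of 6 genes (median -0.16), and in groups 9 to 13 in 6 of 12 (median 0.15).

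This difference went with annotated overlap. Of the 19 HOX genes that overlap another gene of the table on the same strand, 14 (73.7%) had a synthesis ratio above 0, with a median of 0.33. Of the 8 that do not (among them HOXA7, HOXA11, HOXA13, HOXB13, HOXC10, HOXD9 and HOXD13), 3 (37.5%) did, with a median of -0.22. Leaving out overlapping members brought the difference between HOX and other homeobox medians from 0.64 to 0.08 on the log2 scale, while the difference in the half-life ratio went from 0.0015 to 0.21. The part of the overlaps in it was not tested.

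The largest synthesis ratios of any member were those of HOXA4 (3.64-fold), HOXA6 (2.45-fold) and HOXA5 (1.90-fold), the adjacent genes whose half-lives were shorter in STM2457. HOXD9, with no same-strand overlap, had 1.71-fold. DLX1, a gene with a shorter half-life in STM2457, was at 1.58-fold. It was the only one of the 33 other homeobox genes past 1.5-fold upward. So were 12.6% of all genes, but only 28 of the 1678 genes of similar DMSO half-life. HOXC10 had the lowest HOX value, 0.502-fold, with a half-life that hardly moved.

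Among the others, 9 of 33 genes were past 1.5-fold downward, against 13.2% of all genes and 21.4% of those of similar DMSO half-life. All 13 genes of the PAX, ZEB, ZHX, CUX, SATB and POU families had ratios below 0. Of the genes of similar DMSO half-life, 22.8% had ratios above 0. So did 1 of 4 sine oculis genes, 2 of 10 TALE genes and 4 of 6 genes of the DLX, MSX, EMX and CDX families. CDX2 stood at 0.415-fold, SIX5 at 0.489-fold, MEIS3 at 0.532-fold and ZHX1 at 0.539-fold. In MEIS3 both fitted values were lower in STM2457. PBX3, at 1.03-fold, had almost the same synthesis rate in both treatments.

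**Figure D4:**
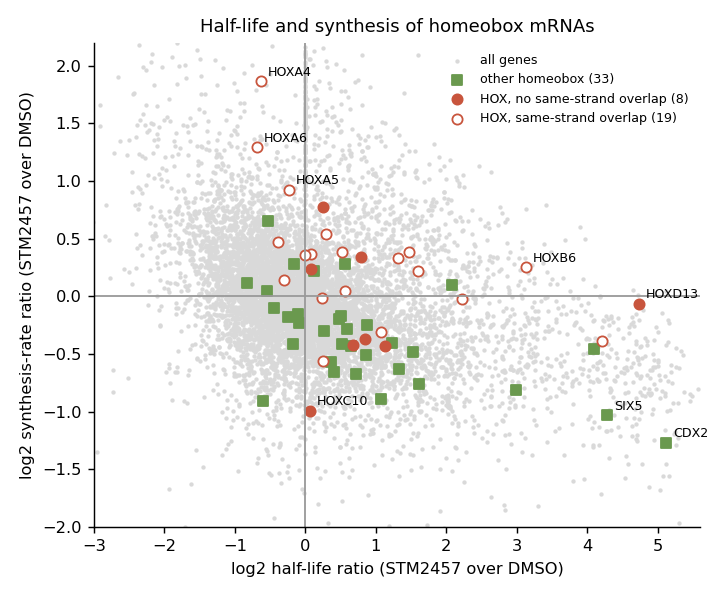
Log2 half-life ratio (x axis) against log2 synthesis-rate ratio (y axis), both STM2457 over DMSO, for all genes (grey, axes cropped to the range shown), 33 other homeobox genes (squares) and 27 HOX genes (circles, open where they overlap another gene on the same strand). HOXA4, HOXA5 and HOXA6 sit at the upper left, CDX2 and SIX5 at the lower right, and most squares lie below 0 on the y axis.

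The half-life and the synthesis rate of a gene are both fitted values, and whether 1 fit of the same libraries gave both is not stated. If it did, a high value of either can go with a low value of the other. The log2 ratios of half-life and synthesis had a rho of -0.47 over HOX genes, -0.57 over the other homeobox genes and -0.35 over all genes. Together they imply a steady-state abundance, which was compared with the most that could be made in 6 h if nothing decayed. That limit was exceeded by 7 HOX genes (HOXB6, HOXB7, HOXB9, HOXC9, HOXD10, HOXD11 and HOXD13) and 5 others (CDX2, MSX2, SIX2, SIX5 and ZHX2), and by 23.4% of all genes. For HOXD13 the fit implied a 25.3-fold abundance against a reachable 2.52-fold, for CDX2 14.3 against 1.86 and for HOXB6 10.4 against 3.57. For these 12 genes the implied steady state could not have been reached in 6 h. That alone does not show that a fitted half-life is wrong, but the sizes of the 12 ratios are not taken as known. MSX2 passed the limit narrowly, at 4.52-fold against 4.37. Staying under the limit does not show that a value is right.

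Among the longer-lived genes that stayed under that limit, POU3F2 implied 1.81-fold against 3.93, HOXA11 2.19-fold against 5.16 and EMX2 1.76-fold against 3.13. HOXA4 implied 2.35-fold and HOXA6 1.53-fold the DMSO abundance, with the higher synthesis rate and the shorter half-life multiplied together. MEIS3 implied 0.351-fold, the lowest of the 60.

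Many of the members have a long coding exon, but not all do. The longest coding exon had a median of 580 nt in HOX genes and 519 nt in the others, against 267 nt over all genes with a coding transcript, and all HOX genes carry their coding sequence in 2 exons. The number of DRACH motifs in the coding sequence at least 100 nt from any exon junction, called far coding motifs here, had a median of 9 in HOX genes (3 to 20), 10 in the others (1 to 65) and 3 in all genes. A motif is a match of letters, and no methylation was measured in these files.

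**Figure D5:**
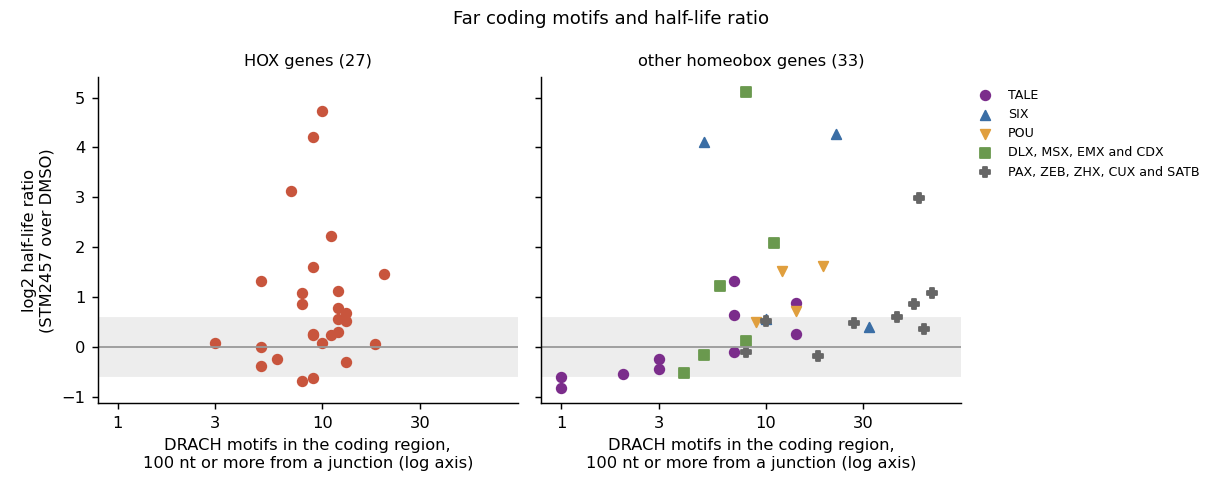
Log2 half-life ratio of STM2457 to DMSO (y axis) against the number of far coding motifs per gene (x axis, log scale) for 27 HOX genes (left) and 33 other homeobox genes (right, marked by family), with the grey band for ratios within 1.5-fold. The HOX points form a column between 3 and 20 motifs, while at right the TALE genes with 1 to 3 motifs all lie below 0 and the ZHX and ZEB genes with 44 to 65 motifs all lie above 0.

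Among HOX genes the number of far coding motifs was little related to the ratio (rho 0.15 over 27 genes). HOXC10, with 18, had a log2 ratio of 0.06, HOXD10, with 20, had 1.47, and HOXB6, with 7, had 3.13. Among the other homeobox genes the relation was closer, with rho 0.49 over 33 genes for far coding motifs and 0.61 for the longest coding exon. Counting all coding motifs, near and far, gave -0.19. Over all 8496 genes with a coding transcript these were 0.26, 0.25 and 0.00. Far motifs in the 3′ untranslated region had a rho of 0.07 in HOX genes, -0.05 in the others and 0.06 over those 8496.

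The families marked the ends of the range of far coding motifs. MEIS, PBX and PKNOX genes had 1 to 7 far coding motifs (median 3) among a median of 33 coding motifs in all, and their longest coding exon had a median of 245 nt. Of all 3837 genes with 1 to 7 far coding motifs, 2225 had a log2 ratio below 0 and 29.2% were shorter-lived, and their median log2 ratio was -0.18. By that background the 2 shorter-lived genes of 7 are not unusual in number. ZHX1, ZHX2 and ZHX3 had 65, 56 and 53 far coding motifs in coding exons of 2511 to 2634 nt, ZEB2 had 59 and ZEB1 had 44. POU3F2 and POU3F3 have their coding sequence in 1 exon and had 19 and 14. Of the 2517 genes with more than 7 far coding motifs, 1111 were longer-lived and 290 shorter-lived, with a median of 0.42.

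Regulators of HOX expression were described from lists of known genes. Of 34 Polycomb genes, which keep HOX clusters silent, 28 had rows; 6 were longer-lived and 4 shorter-lived, with a median log2 ratio of 0.14. CBX2, a subunit that compacts chromatin, went from 2.91 to 13.1 h, and SCMH1 from 6.84 to 2.64 h. Of 26 Trithorax genes and coactivators, which keep HOX clusters active, 23 had rows, with 7 longer-lived, 2 shorter-lived and a median of 0.17. NCOA6 had 3.38 and 13.4 h and WDR5 7.03 and 4.09 h. NCOA6 overlaps PIGU and is uncertain. The fits of CBX2 and NCOA6 implied more than could be made in 6 h (2.06-fold against 1.65 and 2.18-fold against 1.67). The sizes of both changes are not taken as known. The longer-lived shares of these lists were 21.4% and 30.4%, beside 28.5% of all genes. Their shorter-lived shares were 14.3% and 8.70%, beside 24.9% of all genes.

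Non-coding RNAs of the HOX clusters had 4 rows. HOTAIRM1 had 7.24 h in DMSO and 13.2 h with STM2457, HOXA10-AS had 1.07 and 7.40 h, and HOXB-AS3 had 5.48 h and the ceiling of 69.3 h. HOXA11-AS had 3.51 and 2.34 h, a log2 ratio of -0.58 just within 1.5-fold. The fits of HOTAIRM1, HOXA10-AS and HOXB-AS3 implied more than could be made in 6 h. The sizes of their changes are not taken as known. HOXA10-AS runs antisense over HOXA9 and HOXA10, HOXB-AS3 over HOXB3 to HOXB6, and HOXA11-AS over HOXA11. The kit marks strand, but no source used here says whether strand was used in counting, so values of partners may mix.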

How the data were processed

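RNA was taken from 18 samples of HEK293T cells for SLAM-seq. The submitters' processing notes name STAR 2.7.8a, FastQC 0.11.9 and the build GRCh38.p12. Alkylation and 3′-end libraries are per the labels' protocols. The tool that fitted the kinetics, its gene filter, its annotation and the libraries behind each fit are not stated in the sources used. For every gene the authors deposited a half-life and a synthesis rate under each treatment, and the log2 ratios of both. The log2 ratios recomputed from the deposited half-lives differed from theirs by at most 1.27e-14.

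Genes past 1.5-fold were counted and set beside the same count over all genes, with no test. Positions, overlaps, transcripts and motifs came from GENCODE release 29 (GRCh38), which gave a position for 8982 genes and a coding transcript for 8496, including all 60 members. The release behind the table may differ. A half-life was taken as at the ceiling within 1e-06 of the largest value. A rate of 0 in STM2457 left 3 genes out of synthesis counts.

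A few members' own values and sequences are not reported here, though counts and medians include them. Members and lists were chosen with earlier results of these data known. Any member could be named, as could the highest and lowest ratio of each other list with both half-lives between 0.5 and 24 h, and every gene of a list with under 5 genes in the table. The counting was tested on simulated ratios. Alternatives changed the size rule, the summary, the range of half-lives, the centring and the members kept. Python 3.11.15, NumPy 2.4.6, pandas 2.3.3, Biopython 1.88 and Matplotlib 3.10.9 were used.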

Additional observations from a re-analysis of the deposited data

How the results depend on the processing

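With 2-fold as the size rule, shorter-lived genes went from 2 to 0 among HOX genes and from 2 to 0 among the others. As means in place of medians, the log2 half-life ratio was 0.86 in HOX genes and 0.86 in the others, and the difference of HOX from other homeobox genes was -0.13 in DMSO (median 0.19, the other sign) and -0.13 in STM2457 (median -0.51). Without members that overlap another gene on the same strand, which left 8 HOX and 31 other genes, 5 HOX genes were longer-lived and 0 shorter-lived. The difference in STM2457 was then -0.22 and that in synthesis 0.084, and longer-lived genes numbered 4 in paralog groups 9 to 13 and 1 in groups 1 to 8; fewer genes were counted. In 54 other values the alternatives stayed within 1.2-fold for medians or 1.5 times for counts. Alternatives for synthesis, paralog classes and the MEIS, PBX and PKNOX genes were chosen after seeing the data.

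The difference of HOX from other homeobox genes in the median log2 half-life ratio ran from -0.22 to 0.21 over its alternatives. Leaving out members at the ceiling kept 10 longer-lived HOX genes with a median of 0.29. No paired analysis was possible because the table has no values for single samples, and leaving out replicates was not run for the same reason. Depth is unknown, so no limit on low values could be set.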

Other observations

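Of 117 homeobox genes outside the rule, 29 had rows, and their median half-life was 2.14 h in DMSO and 3.44 h with STM2457. The list held 13 longer-lived and 0 shorter-lived genes, with 16 between, and its median log2 ratio was 0.31. The longer-lived share, 44.8%, stands beside 28.5% of all genes and 41.5% of those of similarly short DMSO half-life, of which 5.18% were shorter-lived. ADNP2, a zinc-finger and homeodomain protein, went from 1.79 to 18.9 h, and TSHZ2, a teashirt-type repressor, had 2.36 and 1.65 h, a log2 ratio of -0.52. The fit of ADNP2 implied a 6.06-fold abundance against a reachable 2.33-fold in 6 h, so the size of its change is not taken as known. The median log2 synthesis ratio of the 29 was -0.30, on the side of the other homeobox members and not of the HOX genes.

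Retinoic acid is a classical inducer of HOX genes. Of 14 retinoid receptors and enzymes, 7 had rows, with 4 longer-lived and 2 shorter-lived and a median log2 ratio of 0.80, beside 28.5% longer-lived and 24.9% shorter-lived of all genes. DHRS3, which reduces retinal, went from 3.61 to 8.34 h. Its fit implied a 2.97-fold abundance against a reachable 2.48-fold in 6 h, so the size is not taken as known. CRABP2, which carries retinoic acid to its receptors, went from 5.47 to 2.83 h.

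Markers that HEK293T cells are known to express had 7 rows of 11, with 0 longer-lived and 1 shorter-lived (VIM, 23.2 and 15.0 h) and a median log2 ratio of -0.42, beside the same all-gene shares. GATA3 had 1.07 and 1.42 h. Of 12 markers of other cell types, 1 had a row, COL1A1, with 7.85 and 29.1 h. The fit of COL1A1 implied a 3.88-fold abundance against a reachable 1.56-fold in 6 h, so the size is not taken as known. The table gives no levels, so a row shows only that a fit was reported.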
